A study of Capra hircus with 10 samples.

Results

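The Wnt genes described here are the protein-coding genes of the goat table named WNT, FZD, SFRP, DKK or RSPO with a number, together with LRP5, LRP6, CTNNB1, AXIN2, WIF1, RNF43 and ZNRF3. This choice by name gave 47 of the 20587 gene symbols and 69 of the 43766 protein-coding transcripts. They comprised 19 Wnt ligands, 12 receptors and co-receptors, 8 secreted antagonists, 4 R-spondins, 2 ubiquitin ligases and 2 cytoplasmic proteins. The samples were ovaries of Anhui white goats from a slaughterhouse, 5 labelled as follicular phase and 5 as luteal phase, each sequenced as its own library without pooling. No treatment, age, genotype or hormone level is given for any of the 10 ovaries, and the phase was assigned to the ovary by the study. The ovaries are numbered 1 to 5 within each phase, and nothing says that they came from separate goats, so the p-values measure the spread between these ovaries. Expression was measured as FPKM, sequenced fragments corrected for transcript length and for the size of the library, and was summed over the transcripts of a gene.

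Wnt proteins are lipid-modified secreted signals that bind a Frizzled (FZD) receptor together with the co-receptor LRP5 or LRP6. In the canonical branch this spares β-catenin, the product of CTNNB1, from destruction and lets it switch on target genes such as AXIN2. Secreted frizzled-related proteins (SFRP) and WIF1 bind the ligands, Dickkopf proteins (DKK) mostly block the co-receptors, and R-spondins (RSPO) keep the ligases RNF43 and ZNRF3 from removing the receptors. In the ovary the pathway is known for its part in ovarian differentiation, in follicle growth and in the formation of the corpus luteum.

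The marker genes of the corpus luteum matched the labels of all 10 ovaries. The summed FPKM of 8 luteal markers was 135 to 188 in follicular ovaries and 5962 to 8148 in the luteal phase. STAR, 1 of the 8, which carries cholesterol into mitochondria, was 12.1 to 25.7 against 2081 to 3245. Summed markers of endothelium were also higher in every luteal phase ovary, at 263 to 335 against 152 to 183. Summed markers of smooth muscle were lower in every luteal phase ovary, at 656 to 1067 against 1225 to 1521, and so were those of theca cells, at 105 to 146 against 148 to 220. Granulosa cell markers, at 281 to 1123 against 461 to 1699, overlapped between the phases. In whole ovaries, fewer cells of a type and less RNA per cell cannot be told apart, and the part of these cell types in the values that follow was not tested. The FPKM of an ovary summed to 492324 to 540124 in follicular ovaries and to 452508 to 503276 in the luteal phase. The number of reads behind an FPKM is unknown, so no counting error can be given.

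Of the 47 Wnt genes, 39 passed the filter of at least 0.1 FPKM in at least 5 of the 10 ovaries and were tested. The phases were compared on log2(FPKM + 0.1), luteal minus follicular, with limma and Benjamini-Hochberg adjustment over all 15359 genes tested, and an adjusted p under 0.05 counted as a change. This scale understates the change of genes with low values. In total 17 of the 39 genes changed (43.6%), against 43.7% of all genes tested, a nearly equal share. Of these, 6 were higher in the luteal phase, WNT9B among them, which passed the filter through the luteal ovaries (15.4%, against 15.9% of all genes) and 11 were higher in the follicular phase (28.2%, against 27.8%). The shares over all genes moved with the scaling. With values shifted to a common median 7 of the 39 were higher in luteal ovaries (17.9%, against 18.9% of all genes) and 10 in follicular ovaries (25.6%, against 19.9%). TPM, which left 41 Wnt genes to test, gave 7 (17.1%, against 18.2%) and 10 (24.4%, against 16.7%), and quantile normalization 7 (17.9%, against 17.5%) and 11 (28.2%, against 24.4%). Of the 39 tested genes, 10 changed without overlap between the phases, where 27.9% of all genes tested did. They were 4 of the 39 towards the luteal phase and 6 of the 39 towards the follicular phase, beside 11.1% and 16.8% of all genes tested. Among changed genes only, the phases did not overlap for 10 of the 17, beside 4282 of 6711 over all genes. The median log2 fold change was -0.23 over the 39 genes and -0.14 over all genes. WNT1, WNT3, WNT7B, WNT8A, WNT8B, WNT10A, WNT10B and RSPO4 did not pass the filter, and the highest value among these 8 genes in any ovary was 0.19 FPKM.

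**Figure D1:**
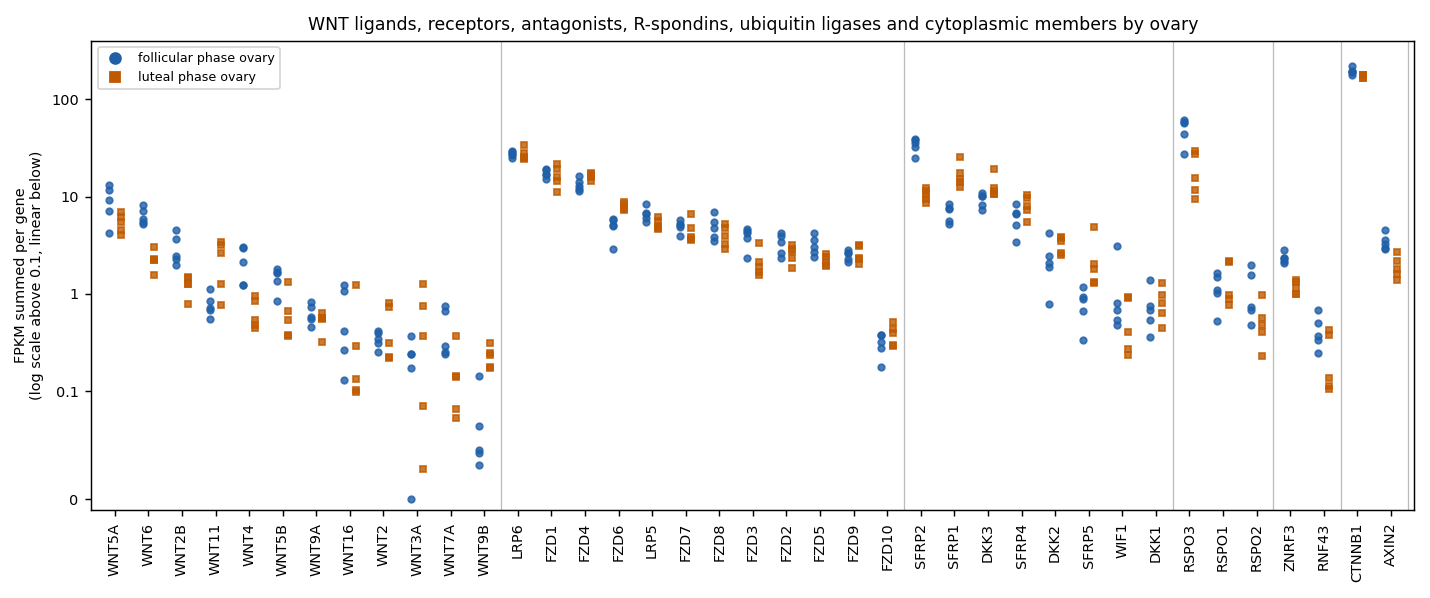
FPKM of the 39 tested Wnt genes (logarithmic above 0.1, linear below), with a circle for each of the 5 follicular phase ovaries and a square for each of the 5 luteal phase ovaries. The genes are grouped by role and ordered by level. CTNNB1 lies above the other genes in every ovary, the circles of SFRP2 and WNT6 lie above their squares, and the squares of SFRP1 lie above its circles.

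**Figure D2:**
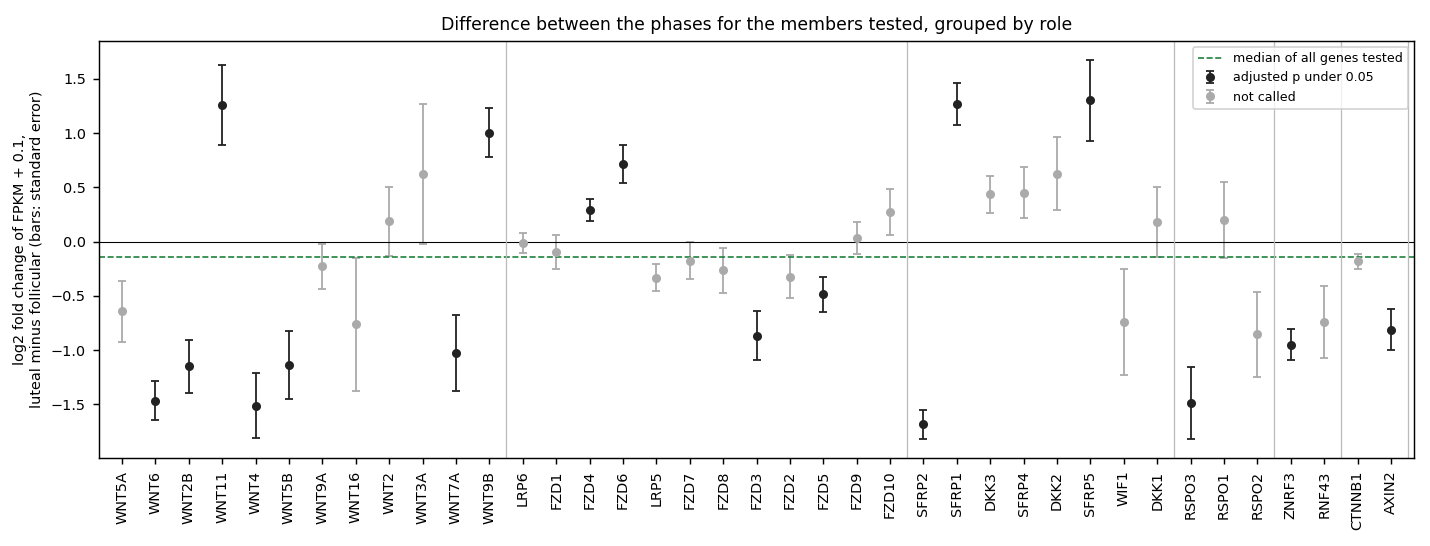
Log2 fold change (luteal minus follicular, on the log2(FPKM + 0.1) scale) of the 39 tested Wnt genes with its standard error, grouped by role and ordered by level. Black points mark the 17 genes that changed and grey points the others, and the dashed line is the median of all genes tested (-0.14). The values run from -1.68 for SFRP2 to 1.3 for SFRP5.

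Among the ligands, 7 of the 12 tested changed (58.3%, against 43.7% of all genes), 5 towards the follicular phase (41.7%, against 27.8%) and 2 towards the luteal phase (16.7%, against 15.9%). The most abundant was WNT5A, which mainly acts through the branch without β-catenin. WNT5A (gene ID 102170921) stood at 9.22, 4.17, 11.6, 7.04 and 13 FPKM in follicular phase ovaries 1 to 5 and at 6.19, 5.41, 6.98, 4.54 and 4.00 in luteal phase ovaries 1 to 5. Its 4 highest values were all follicular, yet follicular ovary 2 lay below 4 of the 5 luteal ovaries. The log2 fold change of WNT5A was -0.64 (SE 0.28, adjusted p = 0.0803), and without follicular ovary 2 it was -0.89 (adjusted p = 0.0057).

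WNT6, WNT2B and WNT4 fell in luteal ovaries with no overlap between the phases. WNT6 (gene ID 108637658), a ligand with a known part in kidney development, was measured at 7.14, 8.20, 5.88, 5.23 and 5.48 FPKM in the follicular ovaries and at 3.00, 2.29, 2.22, 1.56 and 2.24 in the luteal ovaries. Every follicular value was thus above every luteal one, with a log2 fold change of -1.46 (SE 0.18, adjusted p = 9.97e-05), or 2.76-fold. WNT2B (gene ID 102182009) had 4.53, 3.62, 2.29, 1.99 and 2.45 FPKM in the follicular ovaries against 1.47, 1.26, 1.27, 1.49 and 0.778 in the luteal ovaries. Its follicular ovary 1 was the highest, and the log2 fold change was -1.15 (SE 0.24, adjusted p = 0.0031). WNT4 (gene ID 102187819), which is needed for ovarian differentiation and acts in granulosa cells, reached 1.22, 3.04, 2.11, 1.24 and 2.94 FPKM in the follicular ovaries and 0.949, 0.851, 0.534, 0.447 and 0.474 in the luteal ovaries. The log2 fold change of WNT4 was -1.51 (SE 0.30, adjusted p = 0.00227). With its most abundant transcript alone it was -1.76 and no longer passed (adjusted p = 0.0576), and with a pseudocount of 1 it was -0.88 (adjusted p = 0.0031).

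WNT5B, a close relative of WNT5A, fell as well, from 1.46 ± 0.378 FPKM (SD, n = 5) in the follicular phase to 0.657 ± 0.395 in the luteal phase (log2 fold change -1.14, SE 0.31, adjusted p = 0.0126), with overlap between the phases. WNT7A went from 0.441 ± 0.249 to 0.162 ± 0.12 FPKM (SD, n = 5 each; log2 fold change -1.03, SE 0.35, adjusted p = 0.0347). WNT7A reached 0.1 FPKM in 5 follicular and 3 luteal ovaries. The call did not hold with a pseudocount of 1 (-0.30, adjusted p = 0.0531), after rescaling to TPM (adjusted p = 0.0535), with only the most abundant transcript of each gene (adjusted p = 0.0528) or without follicular ovary 1 or 5 or luteal ovary 1, 2, 4 or 5 (highest adjusted p = 0.0849).

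The ligands that rose in the luteal phase were WNT11 and WNT9B. WNT11 (gene ID 102175498), a ligand of cell movement in the embryo, had 1.12, 0.850, 0.680, 0.548 and 0.721 FPKM in the follicular ovaries and 1.27, 0.772, 2.62, 3.21 and 3.4 in the luteal ovaries. Luteal ovaries 3, 4 and 5 were far above all follicular ones, while luteal ovary 2 lay within the follicular range. The log2 fold change of WNT11 was 1.26 (SE 0.37, adjusted p = 0.0176), and 1.89 with only its most abundant transcript (adjusted p = 0.0111). WNT9B (gene ID 102169419), a ligand known from kidney and Müllerian duct development, was low throughout, with 0.068, 0.142, 0.046, 0.042 and 0.032 FPKM in the follicular ovaries and 0.314, 0.236, 0.172, 0.246 and 0.177 in the luteal ovaries. Its phases did not overlap, and the log2 fold change was 1.01 (SE 0.22, adjusted p = 0.00429). The size depends on the pseudocount, with 1.78 for 0.01 and 0.20 for 1. WNT9B reached the minimum of 0.1 FPKM in 5 luteal but only 1 follicular ovary and so passed the filter through the phase where it was higher, and without a filter its adjusted p was 0.0021. For the other tested ligands no change passed the test, namely WNT2 (log2 fold change 0.19, adjusted p = 0.656), WNT3A (0.62, adjusted p = 0.452), WNT9A (-0.23, adjusted p = 0.393) and WNT16 (-0.76, adjusted p = 0.333).

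Summed over all 19 ligands, FPKM was 20.7 to 28.2 in follicular ovaries and 12.9 to 17.8 in the luteal phase. The log2 ratio of the mean sums was -0.77. WNT5A was the largest ligand in 4 follicular ovaries (33.6% to 46.0% of the sum) and in all 5 luteal ovaries (30.0% to 43.6%), and WNT6 was the largest in follicular ovary 2 (35.6%). The mean share of WNT6 was 25.6% in follicular ovaries and 15.2% in luteal ovaries, with ranges of 19.4% to 35.6% and 10.8% to 17.7%. WNT11 went the other way, from 3.09% (2.49% to 4.08%) to 15.4% (5.97% to 25.5%). Neither share overlapped between the phases, so the luteal phase had a lower ligand total with a different composition.

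**Figure D3:**
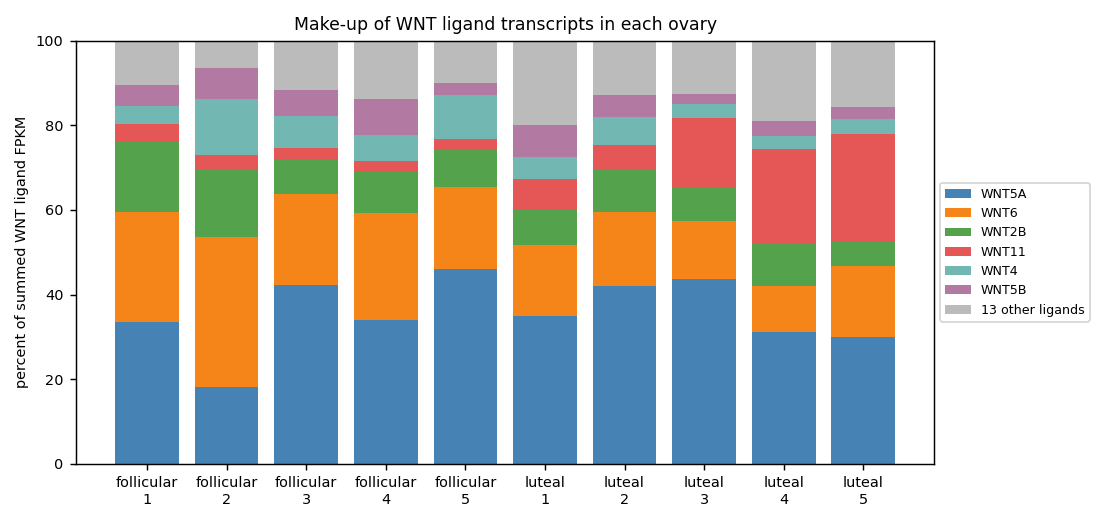
Share of each ligand in the summed ligand FPKM (percent), with 1 stacked bar for each ovary. WNT5A is the largest part of every ovary other than follicular ovary 2, the WNT6 part is 19.4% to 35.6% in follicular and 10.8% to 17.7% in luteal ovaries, and the WNT11 part is 2.49% to 4.08% and 5.97% to 25.5%.

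The receptors differed little in total. Summed FPKM of the 10 FZD genes, LRP5 and LRP6 was 81.7 to 101 in follicular ovaries and 86.4 to 108 in the luteal phase (log2 ratio of the means -0.01). LRP6 (gene ID 102177417), the more abundant co-receptor, had 27.4, 26.7, 28.4, 25.1 and 29.6 FPKM in the follicular ovaries and 25.2, 24.3, 34.2, 27.8 and 25.7 in the luteal ovaries. It was the largest receptor in all 10 ovaries, and the phases overlapped widely (log2 fold change -0.01, SE 0.09, adjusted p = 0.93). FZD1 (gene ID 102183205), the Frizzled gene with the highest mean FPKM (FZD4 exceeded it in luteal ovaries 1, 4 and 5), had 17.1, 15, 19.0, 16.5 and 18.6 FPKM in the follicular ovaries and 16.0, 19.3, 21.7, 14.4 and 11.3 in the luteal ovaries. The lowest and the highest value were both luteal, and the log2 fold change was -0.09 (SE 0.16, adjusted p = 0.653). LRP5 (gene ID 106503755), the second co-receptor, was measured at 8.35, 6.09, 6.74, 5.52 and 6.62 FPKM in the follicular ovaries and at 4.97, 4.65, 5.67, 4.77 and 6.20 in the luteal ovaries. Luteal ovaries 3 and 5 reached into the follicular range, and the test fell just short (log2 fold change -0.33, SE 0.13, adjusted p = 0.050). It passed without follicular ovary 2 (adjusted p = 0.0473), without follicular ovary 4 (adjusted p = 0.0308) and without luteal ovary 5 (adjusted p = 0.0348), but not with a shift to a common median, quantile normalization or TPM (0.0913, 0.0866 and 0.248).

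Among the Frizzled genes, 4 of 10 changed, 2 in each direction, a share of 40.0% that is near the 43.7% of all genes. FZD6 (gene ID 102170617), a receptor known from planar cell polarity, rose in luteal ovaries without overlap. It had 5.79, 2.87, 5.94, 5.13 and 4.94 FPKM in the follicular ovaries and 7.83, 7.22, 7.40, 8.41 and 8.79 in the luteal ovaries (log2 fold change 0.71, SE 0.18, adjusted p = 0.00746). Follicular ovary 2 was the lowest of all. FZD3, its close relative with a known part in the same process, fell from 3.87 ± 0.916 to 2.1 ± 0.70 FPKM (SD, n = 5 each; log2 fold change -0.87, SE 0.23, adjusted p = 0.0107). For FZD3 alone the phases overlapped. The ratio of FZD6 to FZD3 was 1.07 to 1.53 in follicular ovaries and 2.38 to 5.66 in luteal ovaries, with no overlap between the phases. It restates these opposite changes and is not separate evidence.

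FZD4, the receptor known for its part in vessel growth, was slightly higher in the luteal phase, at 16.2 ± 1.23 against 13.3 ± 1.97 FPKM (SD, n = 5 each; log2 fold change 0.29, SE 0.10, adjusted p = 0.0398), where the endothelial markers above were higher as well. With 1 ovary left out at a time, this call held without follicular ovary 3 or luteal ovary 4 and was lost without any of the other 8 (highest adjusted p = 0.0896). It was also lost when the variance was fitted without a trend (adjusted p = 0.0546) and with only the most abundant transcript of each gene (adjusted p = 0.0583). FZD5 fell from 3.16 ± 0.716 to 2.20 ± 0.263 FPKM (SD, n = 5 each; log2 fold change -0.48, SE 0.16, adjusted p = 0.0294). Its call did not hold with quantile normalization (-0.39, adjusted p = 0.0753), TPM (-0.40, adjusted p = 0.0918) or values shifted to a common median (-0.40, adjusted p = 0.0641). It was also lost with only the most abundant transcript of each gene (-0.48, adjusted p = 0.0524) or without follicular ovary 1 or 2 or luteal ovary 2, 3 or 4 (highest adjusted p = 0.0697). FZD2, FZD7, FZD8, FZD9 and FZD10 did not pass the test, with log2 fold changes from -0.32 (FZD2, adjusted p = 0.201) to 0.27 (FZD10, adjusted p = 0.321).

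Among the 8 secreted antagonists 3 changed (37.5%, against 43.7% of all genes), all of them SFRP genes. SFRP2, the largest of these 8 in the follicular phase, fell, and SFRP1 and SFRP5 rose, all without overlap between the phases. SFRP2 (gene ID 102169503) was measured at 39.0, 24.6, 38.6, 35.4 and 32.3 FPKM in the follicular ovaries and at 11.3, 8.67, 12.3, 10.5 and 9.45 in the luteal ovaries. Every follicular value was above every luteal one, and the log2 fold change was -1.68 (SE 0.14, adjusted p = 5.69e-06), or 3.21-fold, the lowest adjusted p of the 39 genes. SFRP1 (gene ID 102176017) had 5.65, 5.27, 8.44, 7.55 and 7.38 FPKM in the follicular ovaries and 15.3, 12.5, 25.6, 17.3 and 14.1 in the luteal ovaries. All luteal values were above all follicular values, with luteal ovary 3 the highest (log2 fold change 1.27, SE 0.19, adjusted p = 0.000413). SFRP5 (gene ID 102173712) had 0.332, 0.927, 0.891, 0.666 and 1.16 FPKM in the follicular ovaries and 1.78, 1.33, 4.85, 2.01 and 1.29 in the luteal ovaries. Here luteal ovary 3 stood well above the rest (log2 fold change 1.3, SE 0.37, adjusted p = 0.0156), and without it the log2 fold change was 0.99 (adjusted p = 0.0221).

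The ratio of SFRP1 to SFRP2 was 0.145 to 0.229 in follicular ovaries and 1.35 to 2.08 in the luteal phase. SFRP1 exceeded SFRP2 in 5 of 5 luteal ovaries and in 0 of 5 follicular ovaries. Among the 8 antagonists chosen by name, which leave out FRZB, described below, SFRP2 made up 47.3% to 64.6% of the summed FPKM in the follicular phase, where it was the largest in every ovary, and SFRP1 was the largest in every luteal ovary with 29.0% to 33.7%. The sum over these 8 genes overlapped, at 47.8 to 68.2 FPKM in follicular ovaries and 43.2 to 76.0 in the luteal phase (log2 ratio of the means -0.15). With FRZB added it was 80.5 to 119 and 131 to 235 FPKM, and the phases did not overlap. SOSTDC1 and APCDD1, inhibitors outside these 8 that fell (described below), were not added, so this is not a sum of all antagonists. The fourth SFRP gene, SFRP4, did not pass the test (log2 fold change 0.45, SE 0.24, adjusted p = 0.143).

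**Figure D4:**
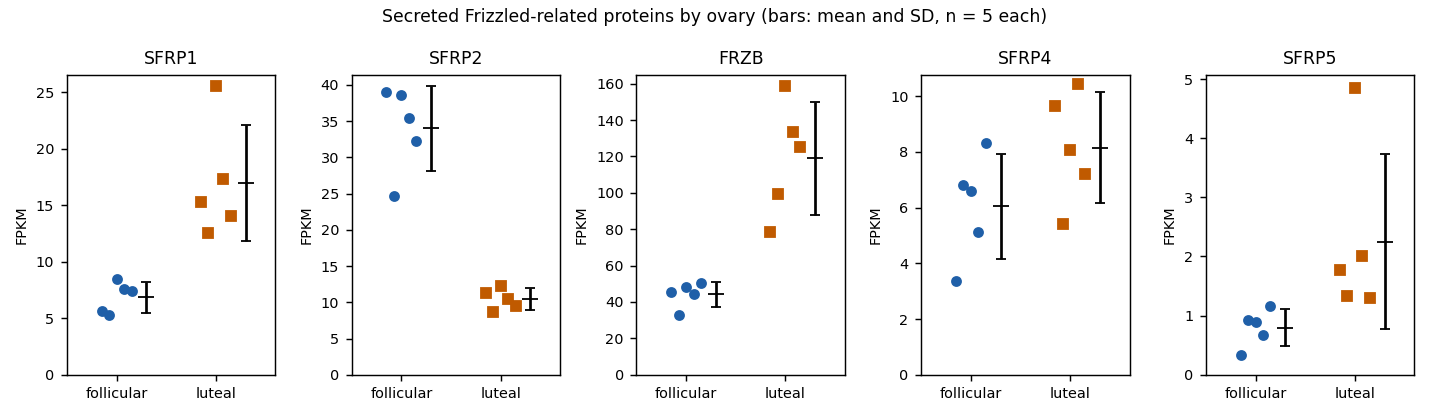
FPKM of the secreted frizzled-related proteins, the 4 SFRP genes and FRZB (described with the cell surface genes), with 1 point for each ovary and the mean ± SD of 5 beside them. SFRP2 lies at 24.6 to 39.0 in follicular and 8.67 to 12.3 in luteal ovaries, SFRP1 lies at 5.27 to 8.44 and 12.5 to 25.6, and SFRP4 overlaps between the phases.

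None of the 3 Dickkopf genes passed the test by limma, where 0.0578 was the lowest adjusted p. DKK3 (gene ID 102191633), a divergent member of this family, was the most abundant of them with 8.19, 7.28, 10.2, 10.1 and 10.9 FPKM in the follicular ovaries and 10.7, 11.5, 19.2, 12.4 and 10.6 in the luteal ovaries. Luteal ovaries 1 and 5 lay within the follicular range, and luteal ovary 3 was the highest (log2 fold change 0.44, SE 0.17, adjusted p = 0.0578). DKK3 passed after a shift to a common median, quantile normalization or TPM (adjusted p = 0.0327, 0.043 and 0.0355), always higher in the luteal phase. For DKK2 (log2 fold change 0.63, adjusted p = 0.151), DKK1 (0.18, adjusted p = 0.671) and WIF1 (-0.74, adjusted p = 0.238) the phases overlapped, and DKK2 passed only without follicular ovary 5 (0.88, adjusted p = 0.033).

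RSPO3 made up most of the R-spondin signal and fell in the luteal phase. R-spondins amplify Wnt signalling at the receptor, and RSPO3 (gene ID 100860772) was measured at 43.7, 27.4, 61.9, 56.5 and 58.8 FPKM in the follicular ovaries and at 29.3, 9.41, 27.5, 15.5 and 11.8 in the luteal ovaries. Follicular ovary 2 was the one follicular value within the luteal range, below luteal ovaries 1 and 3. The log2 fold change of RSPO3 was -1.49 (SE 0.33, adjusted p = 0.0041), or 2.81-fold. It was 94.1% to 96.6% of the summed R-spondin FPKM in follicular ovaries and 78.0% to 93.9% in the luteal phase. RSPO1 (gene ID 100860770), the member needed for ovarian differentiation, had 1.02, 0.525, 1.5, 1.64 and 1.10 FPKM in the follicular ovaries and 2.18, 2.13, 0.874, 0.767 and 0.982 in the luteal ovaries. Luteal ovaries 1 and 2 were above every follicular ovary, and the other luteal ovaries lay within the follicular range (log2 fold change 0.20, SE 0.35, adjusted p = 0.672). RSPO2, known from the oocyte, was at 1.09 ± 0.651 FPKM in follicular ovaries and 0.530 ± 0.275 in the luteal phase (SD, n = 5 each; log2 fold change -0.85, SE 0.39, adjusted p = 0.0965). It passed without follicular ovary 4 (adjusted p = 0.0487) or luteal ovary 3 (adjusted p = 0.0447).

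ZNRF3 and RNF43 are the membrane ubiquitin ligases that R-spondins act upon. ZNRF3 (gene ID 102188884) had 2.33, 2.08, 2.85, 2.19 and 2.33 FPKM in the follicular ovaries and 1.40, 1.01, 1.34, 0.990 and 1.15 in the luteal ovaries. The phases did not overlap, and ZNRF3 fell by 0.95 on the log2 scale (SE 0.14, adjusted p = 0.000417). RNF43 (gene ID 102187799) was lower, with 0.503, 0.337, 0.366, 0.248 and 0.678 FPKM in the follicular ovaries and 0.375, 0.104, 0.424, 0.113 and 0.135 in the luteal ovaries. Luteal ovaries 2, 4 and 5 were below every follicular ovary, luteal ovaries 1 and 3 were not, and the test did not pass (log2 fold change -0.74, SE 0.33, adjusted p = 0.0896), although it did without luteal ovary 3 (-0.94, adjusted p = 0.0365).

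CTNNB1 was the most abundant of the 47 genes. CTNNB1 (gene ID 102191742) was measured at 191, 220.2, 192, 197 and 177 FPKM in the follicular ovaries and at 176, 177, 165, 178 and 164 in the luteal ovaries. The phases overlapped by 1 value each, since luteal ovary 4 exceeded follicular ovary 5, and the log2 fold change was small and not significant (-0.18, SE 0.07, adjusted p = 0.0550). It passed after quantile normalization (-0.24, adjusted p = 0.0072) and without follicular ovary 5 (adjusted p = 0.0333), but was smaller and did not pass with values shifted to a common median (-0.10, adjusted p = 0.429), TPM (-0.08, adjusted p = 0.303) or its most abundant transcript (-0.06, adjusted p = 0.607). AXIN2 (gene ID 102180348), part of the destruction complex and a common target of the canonical branch, had 3.56, 2.87, 4.58, 2.98 and 3.22 FPKM in the follicular ovaries and 2.70, 1.40, 1.79, 2.20 and 1.6 in the luteal ovaries. AXIN2 fell without overlap between the phases (log2 fold change -0.81, SE 0.19, adjusted p = 0.00537). With only the most abundant transcript of each gene the log2 fold change was -2.27 (adjusted p = 0.0377). That AXIN2 transcript was listed at 0 in luteal ovaries 2 and 3, as described below.

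At the level of transcripts, 34 of the 47 genes had 1 transcript and 13 had between 2 and 4. Of the 69 protein-coding transcripts 49 were tested. The 32842 transcripts tested in all also include non-coding ones, so the shares that follow compare unlike sets. Of the 49 Wnt transcripts 12 changed (24.5%), against 17.3% of all 32842 transcripts tested. Of these, 3 were higher in luteal ovaries and 9 in the follicular phase, where 7.47% and 9.82% of all transcripts changed. A shift to a common median gave 6 and 7, where 8.43% and 6.18% of all transcripts changed in these directions. Quantile normalization gave 5 and 8, against 8.20% and 8.57% of all transcripts, and TPM gave 4 and 6, against 7.90% and 5.45%, so the split depended on the scaling for the Wnt transcripts and for all transcripts. For CTNNB1, the transcripts XM_018066894.1 (log2 fold change -0.52, adjusted p = 0.00411) and XM_018066897.1 (-0.31, adjusted p = 0.0265) fell, while the main transcript XM_018066895.1, with 61.9% of the gene's FPKM in follicular ovaries and 67.2% in the luteal phase, did not pass the test (-0.06, adjusted p = 0.672). For WNT11, XM_018059327.1 rose (log2 fold change 1.89, SE 0.48, adjusted p = 0.0229) and went from 38.4% to 71.1% of the gene's FPKM on average. That share ran from 25.3% to 61.4% over the follicular ovaries and from 40.5% to 97.4% over the luteal ovaries, with overlap.

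The AXIN2 transcript XM_018063950.1 was at 1.58, 1.49, 2.24, 1.93 and 1.43 FPKM in the follicular ovaries and at 1.59, 0, 0, 0.632 and 0.508 in the luteal ovaries. It was listed at 0 in luteal ovaries 2 and 3 but was as high in luteal ovary 1 as in the follicular phase, and it did not pass with adjustment over all transcripts (log2 fold change -2.27, adjusted p = 0.063). The other AXIN2 transcripts, XM_018063948.1 (-0.30, adjusted p = 0.493) and XM_018063949.1 (-0.38, adjusted p = 0.696), changed less and did not pass either. For LRP6, whose summed level did not pass the test, the transcript XM_018048472.1 had 7.30, 9.62, 0.011, 0.011 and 7.22 FPKM in the follicular ovaries and no more than 0.007 in any luteal ovary. It was present in 3 follicular ovaries and close to 0 in the other 7 ovaries, and it did not pass the filter. How the authors' software divided reads among transcripts of 1 gene cannot be checked from FPKM, so shares of transcripts are less certain than gene sums.

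In the gene order of the goat RefSeq annotation of assembly ARS1.2, 4 pairs of Wnt genes lie next to each other, namely WNT9B with WNT3, WNT10A with WNT6, WNT1 with WNT10B, and WNT9A with WNT3A. WNT3, WNT10A, WNT1 and WNT10B did not pass the filter, so both genes were tested only in the pair of WNT9A and WNT3A, where neither passed the test. Within 100 kb of 6 of the 47 genes lay 8 annotated long non-coding RNA (lncRNA) transcripts, of which 2 changed, both towards the follicular phase (9.82% of all transcripts tested changed that way). XR_001919656.1 near FZD2 went from 1.65 to 0.894 FPKM (log2 fold change -0.83, adjusted p = 0.037), and XR_001918811.1 near WNT4 went from 239.6 to 202 FPKM (-0.25, adjusted p = 0.040).

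The other genes of the pathway were taken from 4 lists written by role. Of 96 tested genes 42 changed (43.8%), against 43.7% of all genes, and 54 did not pass the test. Of these, 8 were higher in the luteal phase (8.33%, against 15.9%) and 34 in the follicular phase (35.4%, against 27.8%). The median log2 fold change was -0.24 over these genes and -0.14 over all genes. Some genes stand in more than 1 list and were counted once here. With values shifted to a common median 11 (11.5%, against 18.9% of all genes) and 27 (28.1%, against 19.9%) were higher in luteal and in follicular ovaries. The corresponding counts were 10 (10.4%, against 17.5%) and 28 (29.2%, against 24.4%) with quantile normalization, and 9 (9.38%, against 18.2%) and 23 (23.96%, against 16.7%) with TPM. Leaving out 1 ovary at a time gave 6 to 10 genes higher in luteal ovaries and 26 to 37 in the follicular phase, while 13.7% to 16.4% and 21.9% to 29.4% of all genes changed in these directions.

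Among the genes that act in secretion or at the cell surface, 3 of 21 were higher in luteal ovaries (14.3%, against 15.9% of all genes) and 10 in the follicular phase (47.6%, against 27.8%). FRZB, the third secreted frizzled-related protein under its older name and thus outside the choice by name, had 45.7, 32.7, 48.2, 44.3 and 50.5 FPKM in the follicular ovaries and 78.3, 99.2, 159, 133 and 125 in the luteal ovaries. All luteal values were above all follicular values (log2 fold change 1.40, SE 0.18, adjusted p = 0.00016). FRZB had more FPKM than any SFRP gene in every follicular and every luteal ovary. Its ratio to SFRP2 was 1.17 to 1.57 in follicular ovaries and 6.91 to 13.2 in the luteal phase. APCDD1, a membrane inhibitor that is also a Wnt target, fell from 33.0 ± 6.07 to 13.5 ± 1.62 FPKM (SD, n = 5 each; log2 fold change -1.27, SE 0.13, adjusted p = 3.01e-05). The antagonist SOSTDC1 (-1.20, adjusted p = 0.00996) and the Wnt5a receptors ROR1 (-0.52, adjusted p = 0.00487) and RYK (-0.44, adjusted p = 0.00114) fell without overlap as well. Of the R-spondin receptors, named after their values were seen, LGR4 rose (0.85, adjusted p = 0.0223) and LGR6, at no more than 0.164 FPKM in any ovary, fell (-0.60, adjusted p = 0.0461), both with overlap between the phases, and LGR5 did not pass the test (-0.05, adjusted p = 0.882).

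Of 39 cytoplasmic and nuclear genes, 2 were higher in luteal ovaries (5.13%, against 15.9% of all genes) and 13 in the follicular phase (33.3%, against 27.8%). The β-catenin co-activator PYGO1 fell from 11.3 ± 0.68 to 5.90 ± 0.404 FPKM (SD, n = 5 each; log2 fold change -0.93, SE 0.08, adjusted p = 8.54e-06). CDH2, N-cadherin, which holds β-catenin at the membrane, fell from 42.0 ± 6.42 to 20.8 ± 2.58 FPKM (-1.01, SE 0.12, adjusted p = 7.65e-05). The co-repressor TLE2 (-0.91, adjusted p = 0.00614) and the co-activator BCL9L (-0.70, adjusted p = 0.0104) fell too, and TNKS, tankyrase, which marks axin for destruction, rose by 0.25 on the log2 scale (adjusted p = 0.0166). The epithelial cadherin CDH1, named after its values were seen, rose from 0.849 ± 0.127 to 2.28 ± 1.18 FPKM with overlap between the phases (SD, n = 5 each; log2 fold change 1.18, SE 0.31, adjusted p = 0.00991).

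Of 20 genes of planar cell polarity, 1 was higher in luteal ovaries (5.0%, against 15.9% of all genes) and 4 in the follicular phase (20.0%, against 27.8%). RHOA, a small GTPase of the cytoskeleton, rose from 71.6 ± 5.61 to 94.5 ± 2.88 FPKM (SD, n = 5 each; log2 fold change 0.40, SE 0.07, adjusted p = 0.000712), and VANGL2 (-0.96, adjusted p = 0.00484), SCRIB (-0.54, adjusted p = 0.0065) and FUZ (-0.40, adjusted p = 0.00745) fell. Of 21 target and feedback genes, 2 were higher in luteal ovaries (9.52%, against 15.9% of all genes) and 10 in the follicular phase (47.6%, against 27.8%). The feedback inhibitors NKD2 (log2 fold change -1.20, adjusted p = 0.000719) and DACT3 (-0.97, adjusted p = 0.000334) and the transcription factor SOX9 (-0.83, adjusted p = 0.0172) fell, whereas FGF9 (1.11, adjusted p = 0.00173) and the adhesion receptor CD44 (0.80, adjusted p = 0.00941) rose. Several of these targets answer to other signals as well, and a target list does not measure Wnt activity.

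**Figure D5:**
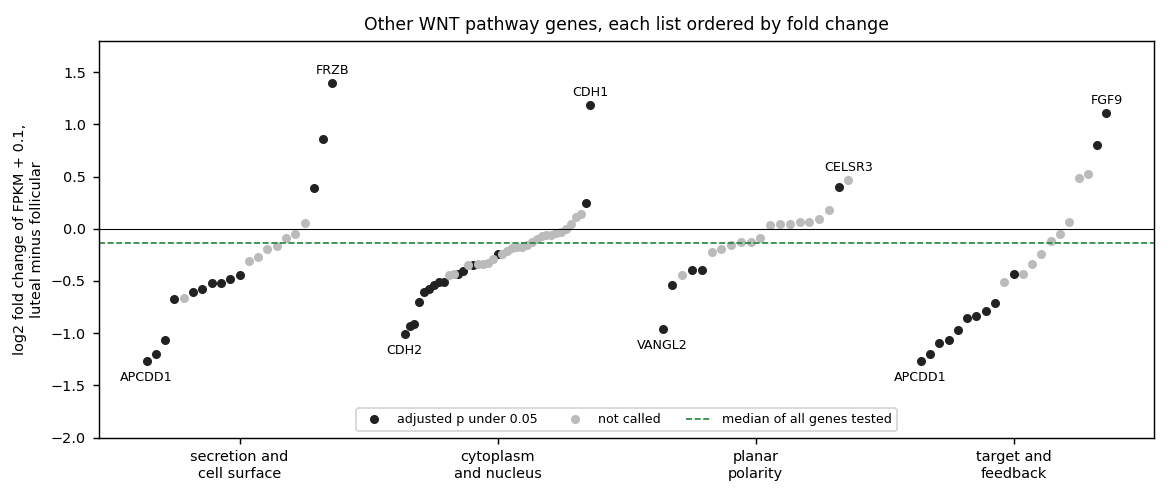
Log2 fold change (luteal minus follicular, on the log2(FPKM + 0.1) scale) of the other pathway genes, with 1 point for each tested gene in each of 4 lists, ordered by fold change. Black points changed, grey points did not pass the test, the dashed line is the median of all genes tested (-0.14), and the lowest and highest gene of each list are named. FRZB (1.40) is the highest point and APCDD1 (-1.27) the lowest.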

How the data were processed

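Each ovary gave 1 strand-specific RNA library without ribosomal RNA, read from both ends on an Illumina instrument. HISAT2 (alignment), StringTie (assembly) and Cuffdiff were the authors' tools for the deposited FPKM, 1 value per transcript and ovary, and the goat assembly is not given in the sources used here. The depth per ovary is unknown, so only the spread between ovaries measures precision. FPKM of protein-coding transcripts were summed by symbol, filtered at 0.1 FPKM in 5 ovaries, and tested as log2(FPKM + 0.1) without further scaling by limma 3.58.1 (lmFit, eBayes with trend) in R 4.3.3, two-sided, with adjustment over all genes or all transcripts tested. The Wnt genes and the lists were chosen with earlier results of these data known. Values per ovary are given for changed genes whose phases do not overlap, the 2 most abundant genes of each role, and CTNNB1, AXIN2, LRP5, LRP6, RNF43 and ZNRF3, and a few others were added after their values were seen, as were all single transcripts and lncRNAs. From each pathway list up to 4 changed genes per direction with the largest fold change and no overlap are named. Listed genes not found in the table under any synonym were not analysed here. Sums by role have no test. The alternatives tried were no filter, a minimum of 0.5 FPKM, pseudocounts of 1 and 0.01, TPM, a shift to a common median, eBayes without trend, quantile normalization, a replicate block, the most abundant transcript only, and each ovary left out. The test was first checked on simulated data with 200 changed genes or transcripts. It found 72% of 2-fold and 96% of 4-fold changes of genes, with 6 false calls. For transcripts it found 29% and 56%, with 8 false calls, so many real changes of transcripts can be missed. Summaries used Python 3.11.15, numpy 2.4.6, pandas 2.3.3 and matplotlib 3.10.9.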

Additional observations from a re-analysis of the deposited data

Results flagged for a closer look

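In each phase, the highest or lowest of the 5 ovaries was compared with the others by Dixon's ratio of its gap to the range, for 65 values (the 39 tested Wnt genes, the named pathway genes and the role sums) in both phases. Of these 130 groups of ovaries 8 passed the critical value of 0.71, and chance passes about 1 in 20. Luteal ovary 3 gave 5 of the 8. It was the highest for DKK3 (19.2 FPKM, others 10.6 to 12.4), SFRP5 (4.85, others 1.29 to 2.01), WNT7A (0.370, others 0.0747 to 0.141), the receptor sum (108, others 86.4 to 88.7) and the sum of Frizzled receptors (68.2, others 55.1 to 58.6). Without this ovary SFRP5 (log2 fold change 0.99, adjusted p = 0.0221 by limma) and WNT7A (-1.26, adjusted p = 0.0111) were still called. Follicular ovary 5 was the highest for WIF1 (3.13 FPKM, others 0.473 to 0.802), luteal ovary 1 was the highest for WNT16 (1.24, others 0.0996 to 0.290), and luteal ovary 2 was the lowest for WNT9A (0.319, others 0.548 to 0.633).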

How the results depend on the processing

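The 39 tested Wnt genes gave 773 log2 fold changes over 20 alternatives, of which 708 kept their direction and their side of the threshold, 30 lost the call, 18 gained one and 17 changed sign. Of the 17 genes that changed, 13 kept their call under every alternative that could be run, and none changed sign. The exceptions were FZD4, FZD5, WNT7A and WNT4. Leaving out 1 ovary at a time gave 5 to 6 Wnt genes that rose and 9 to 13 that fell towards the luteal phase, and 2 to 3 and 6 to 10 of their transcripts, while the share of all genes called ran from 35.7% to 45.8% and that of all transcripts from 12.5% to 17.3%. The role ratios then ran from -0.84 to -0.72 (ligands), -0.08 to 0.02 (receptors), -0.29 to -0.07 (antagonists), -1.54 to -1.19 (R-spondins), -1.08 to -0.91 (ligases), -0.04 to 0.06 (Frizzled receptors) and -0.46 to -0.24 (SFRP). Transcripts higher in the luteal phase numbered 3, but 6 with a shift to a common median and 5 with quantile normalization, and the cause was not tested.

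The log2 fold changes that changed sign were all small and none was called. FZD1 was 0.0064 with TPM and -0.20 to 0.036 with 1 ovary left out. LRP6 was 0.074 with a shift to a common median, 0.087 with TPM, 0.22 with its most abundant transcript alone and -0.094 to 0.029 with 1 ovary left out. With 1 ovary left out DKK1 ran from -0.0075 to 0.41, FZD9 from -0.044 to 0.11, RSPO1 from -0.035 to 0.36 and WNT2 from -0.025 to 0.35.

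Ovaries with the same number in both phases were not paired by the labels. The correlation of their deviations from the phase means ran from 0.0258 to 0.199 over 5 pairs, and 2 of 5 ovaries correlated best with their own number. With a replicate block 19 Wnt genes changed, 7 up and 12 down in luteal ovaries, as did 46 of the other pathway genes (8 and 38) and 10 transcripts (2 and 8). The block raised the share of all genes called from 43.7% to 45.7% and lowered that of all transcripts from 17.3% to 13.6%. Among the Wnt genes the block ended the call of WNT7A (adjusted p = 0.0543) and added those of CTNNB1 (0.0377), DKK3 (0.0345) and LRP5 (0.0442). LRP5 was also called with a minimum of 0.5 FPKM (0.0455) and a pseudocount of 0.01 (0.049).

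The reads behind genes near the filter, such as WNT9B and WNT7A, are not known. A gene that did not pass the test is not shown to be equal in the phases.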

Other observations

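Markers of the other ovarian cell types, listed beside the Wnt genes, also differed between the phases, where 15.9% of all genes rose and 27.8% fell towards the luteal phase. All 8 luteal markers rose, led by STAR (log2 fold change 7.35, adjusted p = 1e-09 by limma) and the side-chain cleavage enzyme CYP11A1 (4.87, adjusted p = 3.36e-09, found in the table under LOC102173131). Of 8 endothelial markers 7 rose, with KDR, the main receptor for vascular growth factor, at 54.4 to 98.0 FPKM in the luteal phase against 21.3 to 28.5. Of 7 smooth muscle markers 5 fell and 1 rose, with ACTA2 at 175 to 335 against 418 to 520.0 FPKM. Of 10 granulosa markers 5 fell and 1 rose. The theca markers INSL3 (-2.42, adjusted p = 9.81e-05) and CYP17A1 fell, and the third, LHCGR, which luteal cells also express and the luteal list holds too, rose (2.87, adjusted p = 5.95e-07). Of 11 stroma markers 4 rose and 4 fell, of 7 surface epithelium markers 2 rose and 3 fell, of 9 oocyte markers 5 fell, and of 6 immune markers 1 rose. The oocyte marker OOSP2 was listed at 0 in every ovary.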
